A study of Mus musculus with 12 samples.

Results

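The 39 genes described here encode enzymes and proteins that add, bind or remove acetyl groups on histones. They were taken as a fixed list, grouped by role into 9 writers, 9 subunits of writer complexes, 6 readers and 15 erasers, out of 21887 protein-coding genes of the mouse. The list includes Kat2a (Gcn5), the acetyltransferase named in the title of the series. The assay was MNase-seq, in which micrococcal nuclease (MNase) digests linker DNA and leaves DNA held by histones, and the cells came from testes of male SV129 mice aged 8 to 12 weeks. The 12 samples form 6 groups of 2. A fraction labelled round spermatid (RS below) and a fraction titled meiotic spermatid (M below, named meiotic in the protocol) were each digested with 0.5, 1 or 2 U of MNase for 7.5 min at 37 °C. Each STAPUT collection pooled the testes of 11 mice, fractions were at least 85% pure, and 2 times as many RS cells as M cells were digested at each amount, so a stage cannot be told apart from this difference in cells. No genotype was varied and no acetylation was measured.

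Histone acetyltransferases neutralise the charge of lysines in histone tails, bromodomain proteins bind the acetylated lysines, and deacetylases remove the mark. In spermatids a wave of histone H4 acetylation precedes the replacement of histones by transition proteins and protamines, so these enzymes are closely linked to chromatin in the haploid stages. The calls analysed here say where histone-bound DNA was detected on these genes. They do not measure the expression of the genes or the activity of their products, and they cannot check the cell type of a fraction by markers.

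Each group had 1 list of nucleosome calls of 140 bp, made by the authors from both of its samples. The RS lists held 179133, 41655 and 27101 calls at 0.5, 1 and 2 U, and the M lists held 42178, 60077 and 65614. Replicates were not separate in these lists, so no difference between stages could be tested against replicate error. Each range in parentheses is a 95% interval that covers counting error alone, and overlapping calls, which are not independent, make it too narrow. The depth of sequencing behind a list is unknown. A call belonged to a gene when its midpoint lay in the gene body or within 1000 bp of it (the gene window). The expected number of calls is the length of the window times the calls per bp of the same list over the windows of all protein-coding genes.

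RefSeq promoter sequences (GRCm38.p6, 250 bases before to 50 after a start) were matched for 33 of the 39 genes, with 47 promoters. These promoters were rich in the dinucleotide CG, with a median of 24 per 300 bases, against 13 over the 21263 promoters of protein-coding genes. Their median G+C content was 65.7%, against 56.3%. The motif TATAA, or TTATA where it is read from the other strand, occurred in 2 of the 47 promoters (4.26%), those of Hdac9 and Sirt7, against 21.9% of all promoters. The 4 promoters below, each at the outermost listed start of its gene, are printed 5′ to 3′ with CG dinucleotides in capitals. Kat2a is shown as the gene of the title. Kat8, Ing2 and Hdac9 are shown because calls lay near these starts.
Kat2a (chr11:100712418-100712717, minus strand): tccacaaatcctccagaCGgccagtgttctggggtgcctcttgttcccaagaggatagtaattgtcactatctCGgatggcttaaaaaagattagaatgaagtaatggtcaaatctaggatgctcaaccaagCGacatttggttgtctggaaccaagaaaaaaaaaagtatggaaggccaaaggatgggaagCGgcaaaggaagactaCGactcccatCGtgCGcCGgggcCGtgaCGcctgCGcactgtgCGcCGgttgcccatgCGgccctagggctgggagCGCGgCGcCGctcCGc
Kat8 (chr7:127912267-127912566, plus strand): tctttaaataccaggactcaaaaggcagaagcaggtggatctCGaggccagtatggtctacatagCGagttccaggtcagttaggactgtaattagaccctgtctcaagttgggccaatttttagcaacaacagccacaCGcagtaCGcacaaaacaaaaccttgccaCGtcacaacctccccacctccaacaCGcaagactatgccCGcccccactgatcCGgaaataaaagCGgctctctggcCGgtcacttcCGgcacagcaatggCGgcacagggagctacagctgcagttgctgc
Ing2 (chr8:47675110-47675409, minus strand): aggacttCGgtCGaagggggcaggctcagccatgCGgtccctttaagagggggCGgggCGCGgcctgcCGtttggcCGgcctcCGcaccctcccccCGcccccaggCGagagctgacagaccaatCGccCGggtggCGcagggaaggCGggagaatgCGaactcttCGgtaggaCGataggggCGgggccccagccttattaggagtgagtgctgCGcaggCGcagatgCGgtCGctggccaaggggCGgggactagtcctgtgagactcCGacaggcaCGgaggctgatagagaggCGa
Hdac9 (chr12:34917046-34917345, minus strand): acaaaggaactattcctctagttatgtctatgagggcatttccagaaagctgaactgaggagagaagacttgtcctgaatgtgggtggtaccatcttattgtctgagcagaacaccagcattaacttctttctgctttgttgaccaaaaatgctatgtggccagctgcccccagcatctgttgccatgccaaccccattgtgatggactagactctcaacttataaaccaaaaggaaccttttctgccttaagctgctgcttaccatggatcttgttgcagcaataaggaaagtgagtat
The Kat2a promoter holds 19 CG dinucleotides, that of Kat8 12, that of Ing2 27 and that of Hdac9 0.

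The counts of calls at these starts are small, and whether they differ from the background was not tested. A call of any of the 6 lists overlapped 1 of the 47 promoters, against 7.08% of all promoters. A call midpoint lay within 1000 bp of the start in 6 of the 47, against 17.7%. These 6 include both promoters of Kat8, which are near the same calls. Kat6a, Epc1, Usp22, Hdac1, Hdac3 and Hdac10 had no matched promoter, so calls near their starts are not counted here. The promoter overlapped was that of Ing2, a subunit of the Sin3 deacetylase complex that binds methylated histone H3. Its call, in M at 2 U, was centred 108 bp downstream of the start and covered the last 12 bases printed above. Among the matched genes, Kat8, which acetylates histone H4, was the one with calls of both stages near its start. The call in RS at 0.5 U was centred 154 bp downstream of the first start (chr7:127912602-127912741), and the call in M at 0.5 U overlapped it (chr7:127912594-127912733). These intervals lie between the first promoter of Kat8 and a second one further downstream. Hdac9 had 3 overlapping calls in M at 2 U, with midpoints at -491, -511 and -531 bp from its outermost start. Hdac4 had 3 overlapping calls in M at 2 U, at -395, -415 and -450 bp from its listed start, and Brd2 had 2 in M at 2 U, 684 and 714 bp downstream of one of its starts. The starts of Kat2a, Ep300 and Brdt had no call within 1000 bp in any list.

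Over whole gene windows, the 39 genes held 208 calls in RS and 115 in M, 323 in all. By list they held 157, 26 and 25 calls in RS at 0.5, 1 and 2 U, and 31, 41 and 43 in M. The largest number belongs to RS at 0.5 U, which is also the longest list. Relative to the expected calls, RS had 0.814 (0.692 to 0.952), 0.570 (0.372 to 0.835) and 0.847 (0.548 to 1.25). M had 0.858 (0.583 to 1.22), 0.699 (0.502 to 0.949) and 0.618 (0.447 to 0.832). The ratio was below 1 in the 6 lists, and its interval included 1 in RS at 2 U and in M at 0.5 U. With overlapping calls merged, the interval also included 1 in RS at 0.5 U (0.733 to 1.07) and at 1 U (0.414 to 1.05). Summed over amounts it was 0.776 (0.675 to 0.889) in RS and 0.700 (0.578 to 0.840) in M. The sum hides how the calls are spread over genes. The median gene of the list had 0.495 times its expected calls over the 6 lists, close to 0.493 for the median protein-coding gene. The 3 genes with the most calls (Hdac9, Hdac4 and Supt3) held 62.2% of the calls in 46.4% of the window length. The number below expectation was 32 of 39, against 70.8% of all protein-coding genes.

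**Figure D1:**
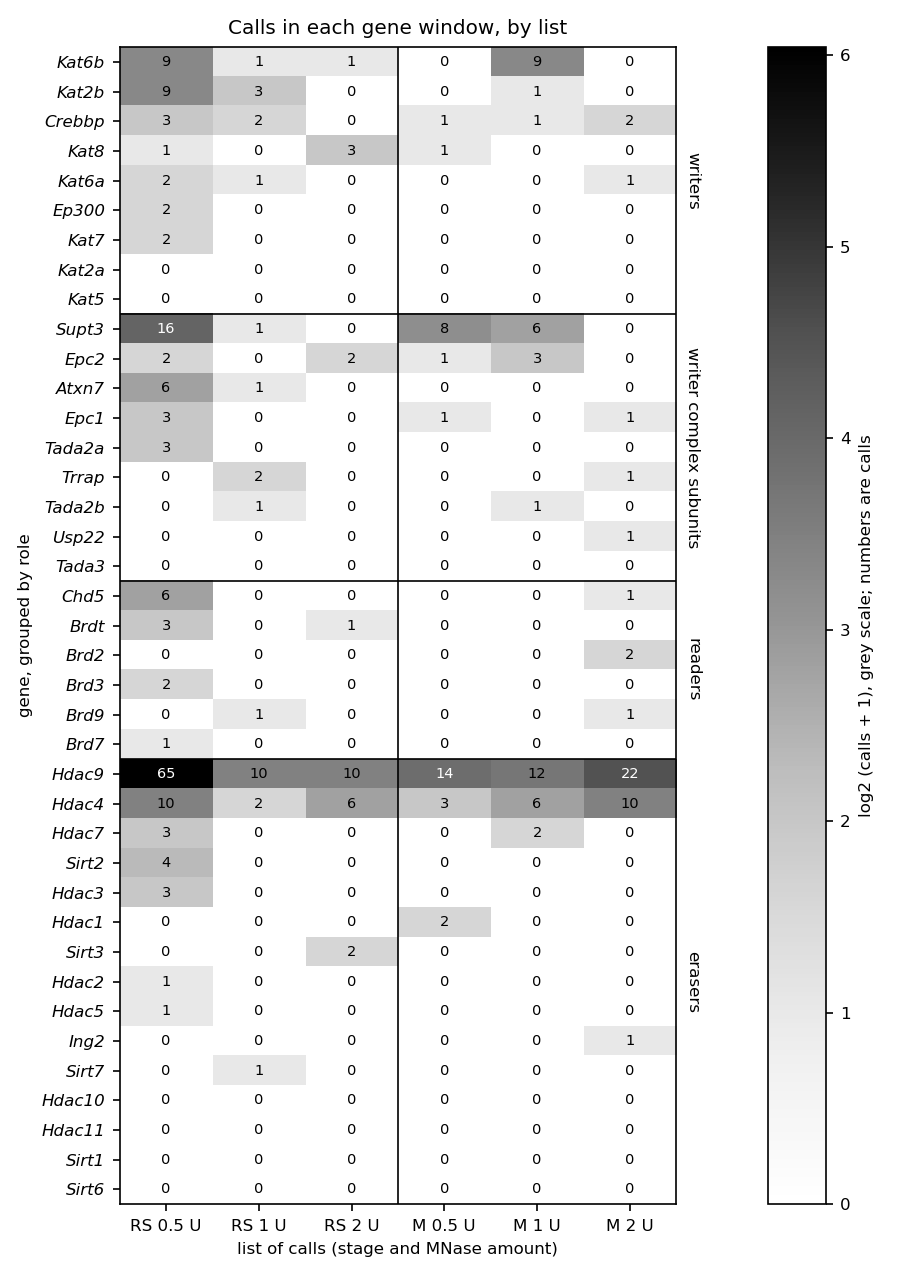
Calls in the window of each of the 39 genes (rows, grouped by role) in each list (columns, RS left of M, from 0.5 to 2 U). Cells give the number of calls and the grey scale log2 of calls + 1. Hdac9 and Hdac4, both over 200 kb long, have calls in the 6 lists, while Kat2a and 6 other genes, all short, have none.

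Between stages the list as a whole showed no difference beyond counting error. Log2 of RS over M, each relative to its expectation, was -0.08 (-0.63 to 0.47) at 0.5 U, -0.29 (-0.99 to 0.41) at 1 U and 0.45 (-0.25 to 1.16) at 2 U. The mean over the 3 amounts was 0.03 (-0.35 to 0.41). These intervals include 0. By gene, 23 of the 32 genes with a call had more calls per 100000 in RS, averaged over the amounts, and 9 had more in M. Of all protein-coding genes with a call, 60.2% had more in RS and 39.8% had more in M. At single amounts the genes with more in RS were 17 of 24 at 0.5 U, against a background of 79.3%, 9 of 14 at 1 U, against 51.4%, and 7 of 16 at 2 U, against 38.7%. Those with fewer in RS were 7 of 24 at 0.5 U, against 20.7%, 5 of 14 at 1 U, against 48.6%, and 9 of 16 at 2 U, against 61.3%. Calls in RS and none in M were found for 13 of the 32 genes, against 36.4% of protein-coding genes with a call, and the reverse for 4, against 14.0%. Both shares are near the background. Apart from Atxn7, with 7 calls, each of these genes had 1 to 4 calls.

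Within a stage, the share of genes with a call followed the length of the list. In RS 23, 12 and 7 of the 39 genes had at least 1 call at 0.5, 1 and 2 U, against a background of 47.6%, 22.2% and 16.8% of protein-coding genes. In M the numbers were 8, 9 and 11, against 14.9%, 22.9% and 27.6%. Over the 3 amounts, 28 genes had a call in RS, against 55.0%, and 19 in M, against 40.6%. In any list 32 had one, against 63.9%. The genes of the list are longer than most, with a median of 32.4 kb against 17.2 kb, and longer genes more often hold a call. Among genes under 20 kb, 7 of 13 had a call in any list, against 43.1%. Of those from 20 to 50 kb it was 8 of 9, against 80.3%. The 17 genes of 50 kb or more each had a call. In the classes from 50 to 100 kb, 100 to 200 kb and over 200 kb, 94.6%, 98.7% and 99.6% of protein-coding genes did.

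Length also sets what the absence of a call can say. The 7 genes without any call are Kat2a, Kat5, Tada3, Hdac10, Hdac11, Sirt1 and Sirt6. They are 5.40 to 20.03 kb long, and between 0.999 and 2.98 calls were expected for each over the 6 lists together. Kat2a (chr11:100704746-100712485), the catalytic subunit of the SAGA and ATAC complexes, had 0 calls in each list where 0.815 were expected in RS and 0.500 in M. The interval of this 0 reaches 2.80 times the expected number over the 6 lists, so with a gene of this length and lists of this size a depletion of Kat2a was not detectable. Among genes of 50 kb or more the counts say more. Of these, 15 of 17 had fewer calls than expected, against 67.8% of protein-coding genes of that length, and their median ratio was 0.511, against 0.739.

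**Figure D2:**
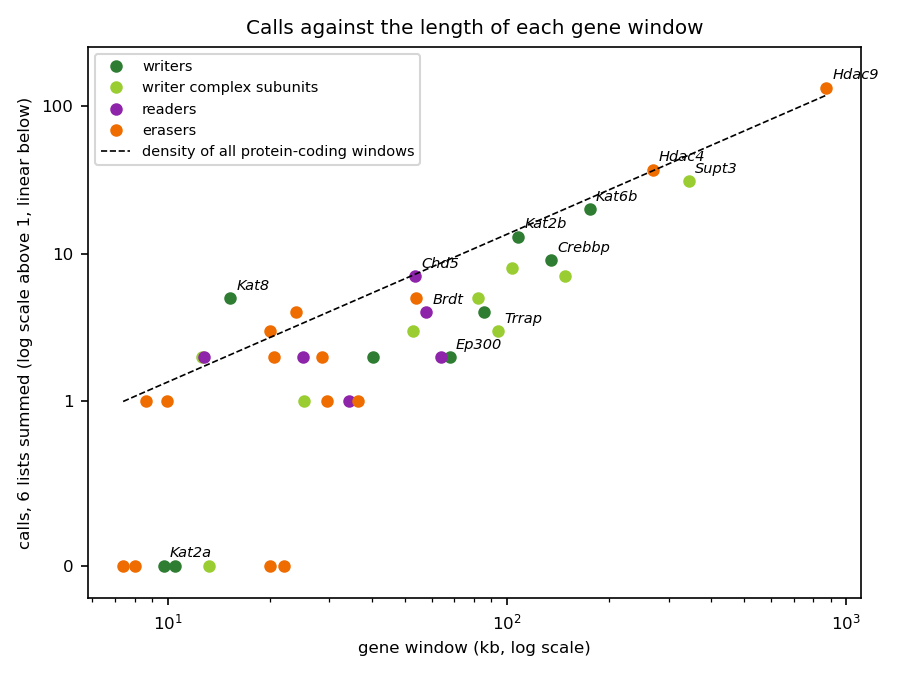
Calls of the 6 lists summed (vertical axis, log scale above 1) against the length of the gene window (horizontal axis, kb, log scale), with a point for each of the 39 genes, coloured by role. The dashed line is the density of all protein-coding gene windows. Most points lie below it, and the genes at 0 are short. Hdac9 and Hdac4 lie on or just above it, as do some shorter genes, and Kat8 lies farthest above it (ratio 2.42).

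The writers were compared first. Their 9 genes held 39 calls in RS and 16 in M, where 54.2 and 33.3 were expected, giving 0.720 (0.512 to 0.984) and 0.481 (0.275 to 0.781). In RS they had 28, 7 and 4 calls and in M 2, 11 and 3, from 0.5 to 2 U. Log2 of RS over M averaged 0.81 (-0.20 to 1.83) over the amounts. Kat2b, also called PCAF, is the paralog of Kat2a and takes its place in SAGA and ATAC. Its window (body at chr17:53566774-53672721) had 9, 3 and 0 calls in RS and 0, 1 and 0 in M. The sums were 12 in RS (6.20 to 21.0) and 1 in M (0.0253 to 5.57), where 9.04 and 5.54 were expected. The 9 calls at 0.5 U merged into 6 separate positions and the 3 at 1 U into 1. Kat2b also held the call with the smallest p-value relative to its list among the 39 genes, 3 steps below the largest value, in RS at 0.5 U.

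Kat6b, a MYST acetyltransferase of histone H3, went the other way at one amount. Its window (body at chr14:21499216-21672478) had 9, 1 and 1 calls in RS and 0, 9 and 0 in M. The 9 calls of M at 1 U merged into 4 positions spread from 26.8 to 158 kb from the 5′ end of the gene, so they are not 1 place counted repeatedly. Without Kat6b the writers had 28 calls in RS and 7 in M, and log2 of RS over M averaged 1.17 (-0.01 to 2.36). Without Kat2b instead, they had 27 calls in RS and 15 in M, with an average of 0.43 (-0.64 to 1.49). Equal MNase per cell pairs RS at 1 U with M at 0.5 U and RS at 2 U with M at 1 U. On this basis the average of the 9 writers was 0.42 (-0.87 to 1.72). Kat6a, the paralog of Kat6b, had 3 calls in RS and 1 in M. Among the other MYST enzymes, Kat8 had 1, 0 and 3 calls in RS and 1, 0 and 0 in M, Kat7 had 2 calls in RS at 0.5 U, and Kat5 (Tip60), the enzyme of the NuA4 complex, had none.

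Ep300 and Crebbp, the paired coactivator acetyltransferases of enhancers, had fewer calls than expected. So did 67.8% of protein-coding genes of 50 kb or more, whose median ratio was 0.739. Crebbp (chr16:4081334-4213957) had 3, 2 and 0 calls in RS and 1, 1 and 2 in M. That is 9 calls where 18.2 were expected, a ratio of 0.495 (0.226 to 0.940). Ep300 (chr15:81586209-81652077) had 2, 0 and 0 calls in RS and 0, 0 and 0 in M, 0.218 of expectation (0.0264 to 0.788).

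The 9 subunits of writer complexes had 0.507 (0.387 to 0.653) of expectation over the 6 lists, the lowest of the 4 roles by this value, although its interval overlaps those of writers and readers. The order depends on single genes. Readers without Chd5 had 0.419 (0.209 to 0.750), subunits without Supt3 0.404 (0.271 to 0.580) and erasers without Hdac9 0.756 (0.573 to 0.980). The 9 subunits held 37 calls in RS and 23 in M, which is 0.505 (0.356 to 0.696) and 0.512 (0.324 to 0.768) of the expected calls. Over the 3 amounts they had 30, 5 and 2 calls in RS and 10, 10 and 3 in M. The ratio to expectation in RS was 0.569 (0.384 to 0.812), 0.401 (0.130 to 0.935) and 0.248 (0.0300 to 0.895). In M it was 1.01 (0.485 to 1.86), 0.623 (0.299 to 1.15) and 0.158 (0.0325 to 0.461). Its fall with the amount of MNase rests on Supt3. Without Supt3 the ratio was 0.438, 0.528 and 0.408 in RS and 0.333, 0.411 and 0.260 in M, with no order by amount. Log2 of RS over M averaged -0.23 (-1.22 to 0.75), and 0.41 (-0.78 to 1.60) without Supt3, so 1 gene decides its sign. At equal MNase per cell, with Supt3 included, it was -1.19 (-2.43 to 0.05). That average was not computed without Supt3, but the ratios above give its pairs. Without Supt3 they were 0.528 in RS at 1 U against 0.333 in M at 0.5 U. The second pair was 0.408 in RS at 2 U against 0.411 in M at 1 U. RS was thus not clearly lower in either pair, so the negative value rests on Supt3. Supt3, a core subunit of SAGA with a histone fold, carried 31 of the 60 calls. Its window (body at chr17:44777118-45119294) had 16, 1 and 0 calls in RS and 8, 6 and 0 in M. The 0 of both stages at 2 U stand where 3.17 calls were expected in RS and 7.48 in M. The window of Supt3 reaches Runx2 and 1 other protein-coding gene, and no call of Supt3 lay in the body of either.

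Trrap, the scaffold shared by SAGA and NuA4, had 2 calls in RS and 1 in M where 12.7 were expected in the 6 lists, a ratio of 0.236 (0.0487 to 0.690). Atxn7, which anchors the deubiquitinase module to SAGA, had 7 calls in RS and 0 in M where 12.4 and 7.60 were expected. Epc2, a scaffold of NuA4, had 2, 0 and 2 calls in RS and 1, 3 and 0 in M, and its paralog Epc1 had 3 in RS and 2 in M. Of the adaptors, Tada2a of ATAC had 3 calls in RS at 0.5 U, all in 1 position, Tada2b of SAGA had 1 call in each stage, and Tada3 had none. Usp22, the deubiquitinase of SAGA, had 1 call in M.

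The role of Chd5 as a reader of acetylation is uncertain, and it is counted here by choice. The 6 readers held 14 calls in RS and 4 in M, 0.675 (0.369 to 1.13) and 0.314 (0.0856 to 0.805) of expectation. Without Chd5 the other 5 held 8 calls in RS and 3 in M, 0.492 (0.212 to 0.969) and 0.301 (0.0620 to 0.879). The counts of the 6 were 12, 1 and 1 in RS and 0, 0 and 4 in M. Brdt, the testis-specific bromodomain protein that binds acetylated histone H4 and is needed for spermatid chromatin compaction in mice, had 3, 0 and 1 calls in RS and 0, 0 and 0 in M (chr5:107331116-107387061). The 4 calls of RS span 33.4 to 56.7 kb from its 5′ end, in 3 positions, the last of them in the flank beyond the 3′ end. A count of 0 in M stands against 2.98 expected calls, so a difference between the stages was not detectable. Chd5, a chromatin remodeller needed for histone removal in mouse spermatids, had 6, 0 and 0 calls in RS and 0, 0 and 1 in M (chr4:152338646-152390194). Its 6 calls in RS formed 3 positions between 16.6 and 23.1 kb from the 5′ end. Brd2 and Brd3, the broadly expressed relatives of Brdt, had 0 and 2 calls in RS and 2 and 0 in M. Brd7 and Brd9, bromodomain subunits of SWI/SNF remodellers, had 1 call each in RS and 0 and 1 in M.

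The calls of the erasers were close in number to expectation. Their 15 genes held 118 calls in RS and 72 in M, 0.986 (0.816 to 1.18) and 0.981 (0.767 to 1.24) of the expected number. This rests mostly on Hdac9, a class IIa deacetylase that acts with MEF2 factors in muscle and nerve, and also on Hdac4. Without Hdac9 the erasers had 33 calls in RS and 24 in M, 0.706 (0.486 to 0.992) and 0.837 (0.537 to 1.25) of expectation. Of these 57 calls, where 75.4 were expected, Hdac4 held 37, where 36.3 were expected. The remaining erasers together were thus further below expectation. Ing2, a subunit of the Sin3 complex with 1 call in M, is counted with the erasers by choice. Whether the roles differ was not tested.

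Hdac9 (chr12:34047580-34917095) is the longest gene of the list at 870 kb. It makes up 27.2% of the windows and holds 41.2% of the calls. It had 65, 10 and 10 calls in RS and 14, 12 and 22 in M. The sums of 85 in RS (67.9 to 105) and 48 in M (35.4 to 63.6) were 1.17 and 1.07 times the expected calls, and the ratio over the 6 lists was 1.13 (0.946 to 1.34). The calls were spread along the gene. With the gene body divided into 3 equal parts from the 5′ end, these held 27, 29 and 29 calls in RS and 14, 12 and 19 in M. The 65 calls of RS at 0.5 U formed 47 positions, with at most 3 calls in any of them. Without Hdac9 the other 38 genes had 0.631 (0.524 to 0.753) of expectation in RS and 0.560 (0.434 to 0.711) in M.

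Hdac4, another class IIa deacetylase, had 10, 2 and 6 calls in RS and 3, 6 and 10 in M (chr1:91928779-92195702). The sums of 18 in RS (10.7 to 28.4) and 19 in M (11.4 to 29.7) stand against 22.5 and 13.8 expected. Hdac4 and Hdac9 were the 2 genes with calls in the 6 lists. Both are over 200 kb long, and 36.3 and 118 calls were expected in them over the 6 lists. The share of protein-coding genes with calls in each list is not given here, so this cannot be told apart from length. Hdac7 and Hdac5, shorter members of the same class, had 3 and 1 calls in RS and 2 and 0 in M. The class I enzymes Hdac1, Hdac2 and Hdac3, the catalytic subunits of the Sin3, NuRD and NCoR complexes, had 0, 1 and 3 calls in RS and 2, 0 and 0 in M.

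The 5 sirtuins, deacetylases that use NAD, had 7 calls in RS and 0 in M, where 6.97 and 4.27 were expected. The interval of M reaches 0.863 of expectation, and log2 of RS over M averaged 2.09 (-0.45 to 4.63). The sirtuins are 1 of several small families counted, and whether they differ from the others was not tested. The 7 calls belong to Sirt2 with 4, Sirt3 with 2 and Sirt7 with 1. Those of Sirt2 formed 2 positions and those of Sirt3 formed 1. The call of Sirt7 lies in the body of a neighbouring gene that its window reaches. It is the 1 call of the 323 that does so, although 21 of the 39 windows reach into another protein-coding gene.

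**Figure D3:**
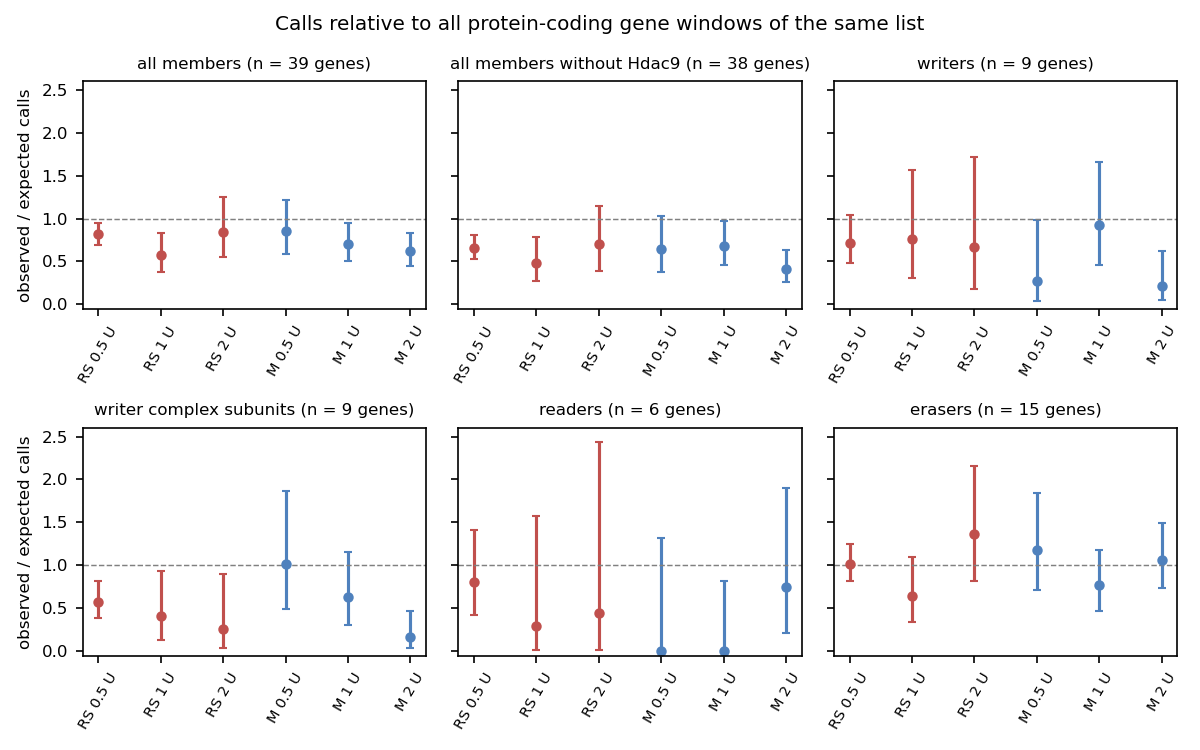
Observed over expected calls (vertical axis) in each list (horizontal axis, RS in red left of M in blue, from 0.5 to 2 U) for the 39 genes, for the same without Hdac9, and for the 4 roles. Points are ratios, bars are exact Poisson 95% intervals for counting error, and the dashed line is 1. Erasers lie around 1, and the subunits of writer complexes range from 0.158 to 1.01.

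Positions were then compared between lists. With calls whose midpoints lay within 73 bp merged over the 6 lists, the 39 genes held 223 positions. Of these 3 (1.35%) were called in 2 lists and none in more, against 3.08% of the positions in all protein-coding windows called in 2 or more, or 2.24% outside the dense bins (stretches of 10 kb where at least 1 list had over 20 calls). None of the 323 calls lay in a dense bin. Each of the 3 shared positions joined RS at 0.5 U to a list of M. They lie in Kat8 just after its first start (M at 0.5 U), in Kat6b at chr14:21619517-21619696 (M at 1 U) and in Hdac9 at chr12:34443412-34443621 (M at 1 U). No position was shared by 2 lists of RS or by 2 lists of M. The shares of these pairings over all protein-coding windows are not given here. With 3 shared positions, the pairings are thus not a result about the 39 genes.

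Most calls carried the weakest p-value in their list. A step is the move to the next smaller p-value that occurs in the list. Of the 323 calls, 264 (81.7%, 77.1% to 85.8%, exact Clopper-Pearson interval) carried the largest p-value of their list, 50 stood 1 step below it, 8 stood 2 steps below and 1 stood 3 steps below. In all protein-coding windows the share at the largest p-value was 71.2%, and 75.5% outside the dense bins. By list the share was 79.6%, 96.2% and 80.0% in RS and 80.6%, 75.6% and 88.4% in M. Outside the dense bins, that of all protein-coding windows was 74.2%, 78.7% and 79.9% in RS and 73.2%, 76.6% and 75.7% in M. The share of the 39 genes was thus about equal to it in RS at 2 U and below it in M at 1 U. Along the genes, the 33 with a known strand had 65, 65 and 67 calls in RS and 37, 32 and 37 in M in 3 equal parts of their bodies from the 5′ end. The part at the 5′ end thus held 33.0% of calls in RS and 34.9% in M, against 33.9% and 34.9% over all protein-coding genes with a known strand.

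**Figure D4:**
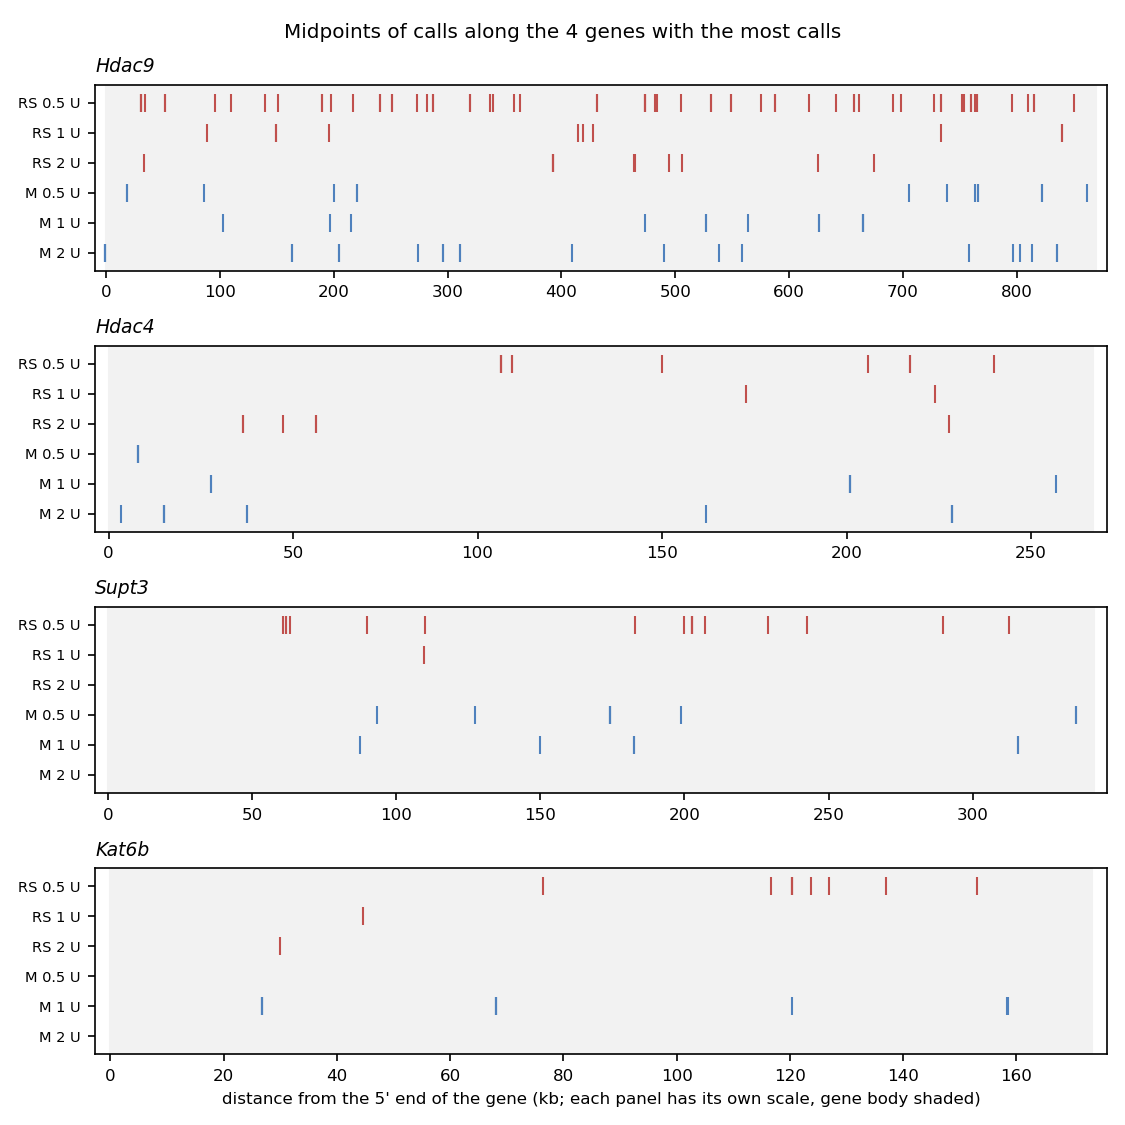
Midpoints of calls (ticks) along Hdac9, Hdac4, Supt3 and Kat6b, by distance from the 5′ end of the gene in kb (horizontal axis, own scale in each panel) and by list (rows, RS in red above M in blue). Calls of Hdac9 are spread over the gene, and Supt3 has no call at 2 U in either stage.

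Calls in the 500 kb on each side of the windows gave a local expectation. The 39 genes had 0.792 of it over the 6 lists, with 32 genes below and 7 above. Of all protein-coding genes, 65.0% were below theirs. Among genes of 50 kb or more, 15 of 17 were below, against 61.6%. Kat8 had 5 calls where 0.965 were expected locally, Sirt2 had 4 where 1.72 were, and Chd5 had 7 where 4.28 were. These are overlapping calls in part. The 3 calls of Kat8 in RS at 2 U formed 1 position, and the 4 calls of Sirt2 formed 2. Among genes with a call, the lowest were Trrap, Brd3 and Hdac2. Trrap had 0.255, Brd3 0.256 and Hdac2 0.206 of their local expectation. By list the ratio was 0.906 (0.770 to 1.06), 0.573 and 0.762 in RS and 1.17 (0.795 to 1.66), 0.708 and 0.597 in M. M at 0.5 U was the one list with a local ratio above 1, and its interval includes 1.

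The other genes of these complexes gave a wider view, and some of them lie on the X chromosome. The 39 genes are all autosomal, so their ratios are not directly comparable with those below. A list of 104 further subunits of SAGA, ATAC, NuA4, MYST and deacetylase complexes, further readers and further erasers held 302 calls in RS and 147 in M, 0.570 (0.507 to 0.638) and 0.452 (0.382 to 0.531) of expectation. Of these genes, 51 had more calls per 100000 in RS, 26 had more in M and 27 had none. That is 51 of 77 with a call, against 60.2% of all protein-coding genes. Log2 of RS over M averaged 0.30 (-0.04 to 0.64). Subunits of deacetylase complexes had 54, 11 and 9 calls in RS and 2, 5 and 25 in M, with log2 of RS over M at 2.06 at 0.5 U, 1.42 at 1 U and -0.21 at 2 U and a mean of 1.09 (0.23 to 1.95). These subunits are 1 of 6 groups into which the 104 genes fall, the group was singled out after its value was seen, and no test was made. The 5 genes with the most calls were Dpf3, a reader of acetylated histones in SWI/SNF, with 30 calls in RS and 19 in M, Baz2b, a bromodomain protein, with 27 in RS and 9 in M, Mllt3, a YEATS-domain reader, with 10 in RS and 22 in M, Atad2b, a bromodomain ATPase, with 14 in RS and 4 in M, and Ncor1, the corepressor that binds Hdac3, with 14 in RS and 3 in M.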

How the data were processed

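MNase-seq was made from 12 samples in 6 groups. Each value deposited by the authors is a p-value of a call of 140 bp in 1 of 6 lists, each made from both replicates of a group, per the series' design text. STAR 2.5.2a and the build GRCm38/mm10 are named in the submitters' processing notes. The caller and its threshold are both not given in the sources used here. The lists hold no read counts, and how far the number of calls follows depth was not tested.

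Midpoints (start + 70) were counted in RefSeq gene bodies (GRCm38.p6) with 1000 bp on each side. Expected calls came from the 21887 protein-coding windows of the same list, on the autosomes, X and Y. Where windows overlap, a call and its bases were counted in each. Log2 ratios had 0.5 added to observed and expected calls. Their normal intervals use the call counts with 0.5 added, whichever constant is in the ratio. Intervals of counts are exact Poisson, those of shares exact binomial. No test was made between stages, as each group had 1 list. Counting was tested on simulated data. Python 3.11.15, numpy 2.4.6, pandas 2.3.3, scipy 1.17.1 and matplotlib 3.10.9 were used.

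The genes, roles and lists were chosen with earlier results of these data known. Calls by list are given for genes with at least 8 calls and for Kat2a, Kat2b, Ep300, Brdt and Chd5, as the rule set. Those of other genes, such as Kat8, and genes singled out by their calls at starts, positions, call strength, local expectation or motifs were chosen after their values were seen. The local expectation, the background of the same length class, and the role ratios without Supt3 or Chd5 were added after the data were seen.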

Additional observations from a re-analysis of the deposited data

How the results depend on the processing

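No paired analysis was possible because each list was made from both replicates of its group. For the same reason no replicate could be left out. The ratios of observed to expected calls were recomputed under 11 alternatives in each of 6 lists, and 64 of the 66 values stayed below 1. The exceptions were RS at 2 U without dense bins (1.01) and, chosen after the data were seen, M at 0.5 U against the local expectation (1.17). Without dense bins, intervals that had excluded 1 included it in RS at 0.5 U (0.731 to 1.01) and in M at 1 U (0.563 to 1.06). In M at 1 U the interval also did so with only calls below the largest p-value (0.282 to 1.08). Values left the interval of the reported ratio in 6 of 66 cases. With only calls below the largest p-value of their list, the ratio was 0.586 in RS at 0.5 U, 0.0791 in RS at 1 U (1 call), 0.507 in M at 0.5 U and 0.246 in M at 2 U. Without Hdac9, the gene with the most calls, it was 0.656 in RS at 0.5 U and 0.415 in M at 2 U. The cause was not tested. Log2 of RS over M, averaged over the amounts, stayed within its reported interval under 13 alternatives, from -0.34 with only calls below the largest p-value to 0.19 without 1 U. Its sign was thus not stable, with -0.18 without 2 U and -0.15 at equal MNase per cell. For the readers, with no call in M at 0.5 and 1 U, it was 1.27 (-0.96 to 3.51) with 0.5 added and 2.55 (0.32 to 4.79) with 0.1 added. The width of both intervals was set with 0.5 added to the counts. The interval printed for 0.1 is therefore too narrow and does not show that 0 is excluded. The share of positions called in 2 or more lists was 1.29% with midpoints within 36 bp, against 1.35% as reported. With most genes at 1 to 7 calls, the number of calls limits statements on single genes. The depth behind the lists is unknown.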
